A study of Mus musculus with 63 samples.

Results

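Extended pluripotent stem (EPS) cells are mouse stem cells grown in a medium meant to give them a wider developmental potential, extraembryonic tissue included. The comparison described here set EPS cells labelled as carrying a short hairpin RNA against Yy1 (shYy1, 2 libraries) against EPS cells labelled shCtrl (2 libraries), all taken on day 6 of culture in a medium that the labels call F4H and do not spell out. These 4 libraries were chosen by their sample titles, out of 22 libraries with RNA counts and 63 samples in the series. All came from the strain C57BL/6, and the undifferentiated EPS cells were kept in LCDM medium on mitomycin-treated embryonic fibroblast feeders or on Matrigel. The labels do not say which support a library came from, whether the 2 replicates of a group were separate cultures, or whether the hairpin line was 1 clone. P-values therefore measure only the spread between replicate libraries, which may be technical. On day 6 that spread was estimated over 8 libraries, including the embryonic stem cell libraries named below. The titles call the day 6 controls shCtrl, whereas the names of their deposited tables mention no construct; whether they carry one cannot be told from the labels. Other libraries used beside them were undifferentiated EPS cells with shCtrl or shYy1 and, on day 6 of F4H, embryonic stem (ES) cells with a control construct (oeCtrl) or a Yy1 overexpression construct (oeYy1), 2 libraries each.

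YY1 is a zinc finger transcription factor that binds promoters and enhancers, recruits chromatin regulators such as INO80 and helps to hold enhancers and promoters together. Cells leaving pluripotency shut down the naive network and turn on the genes of early lineages, among them mesoderm, endoderm and trophectoderm. RNA from the whole culture cannot tell fewer cells of a type from less RNA per cell.

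Yy1 (chromosome 12, start 108792945, end 108820148, GRCm38.p6) was not called lower in the libraries labelled shYy1. It stood at 119.9 and 115 CPM in the shCtrl libraries and at 117 and 113 CPM in those labelled shYy1, so the groups overlapped. CPM is the gene's count scaled to library size after edgeR's TMM normalization. The difference was not called by edgeR's quasi-likelihood test with Benjamini-Hochberg adjustment, the test behind every adjusted p given here (log2 -0.03 ± 0.048, adjusted p = 0.567). In undifferentiated cells the same hairpin label went with 69.3 ± 0.378 CPM against 136 ± 7.75 CPM (SD, n = 2 each, scaled over 16 libraries). Yy1 thus does not check the day 6 label, and "labelled shYy1" is kept below for that reason. Of its 2 paralogs, Yy2 had 0 counts in all 4 libraries and Zfp42 (REX1), a naive pluripotency marker, stood at 3.56 and 3.73 CPM against 6.79 and 5.26 CPM (log2 0.74 ± 0.18, adjusted p = 2.37e-04).

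Sex-linked transcripts also set the 2 groups apart. Xist, the noncoding RNA that silences an X chromosome (X, start 103460373, end 103483233), stood at 0.488 and 0.236 CPM in shCtrl and at 476 and 489.7 CPM in the libraries labelled shYy1. The 334 symbols on the Y chromosome summed to 19.8 and 17.8 CPM in shCtrl and to 183 and 178 CPM under shYy1. They summed to 6.28 and 8.39 CPM in undifferentiated shCtrl cells and to 155 and 160 CPM in undifferentiated shYy1 cells, so the Y-linked gap was present at both stages, while Xist (10.8 ± 0.691 against 15.1 ± 14.5 CPM, SD, n = 2) was not called there (adjusted p = 0.537). On the X chromosome 101 of 571 tested genes, or 17.7%, were at least 2-fold higher on day 6 and 33, or 5.78%, at least 2-fold lower. Over all genes tested these shares were 7.18% and 7.94%. The median log2 change was 0.26 on the X and -0.02 over 14616 autosomal genes. Whether these differences belong to the hairpin or to the lines compared cannot be told apart in this design. Leaving out every X- and Y-linked gene left 1055 genes higher and 1225 lower by at least 2-fold, against 1143 and 1264 with them.

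Gene counts came to 16011955 to 19878763 per library, with 21299 to 22076 symbols detected, and 3 counts correspond to 0.142 to 0.193 CPM. The replicates of each day 6 group differed by 1.89 (shYy1) and 2.19 (shCtrl) times the variance of pure counting, against 20.2 and 6.18 times for undifferentiated shCtrl and shYy1, so they were no copies but lay very close. Of the 15927 genes tested 61.3% were called: 4924 higher (30.9%) and 4838 lower (30.4%). Gene groups are read below against those shares and against the 2-fold calls, 1143 higher (7.18%) and 1264 lower (7.94%). The values of shCtrl and shYy1 libraries did not overlap for 80.1% of tested genes.

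**Figure D1:**
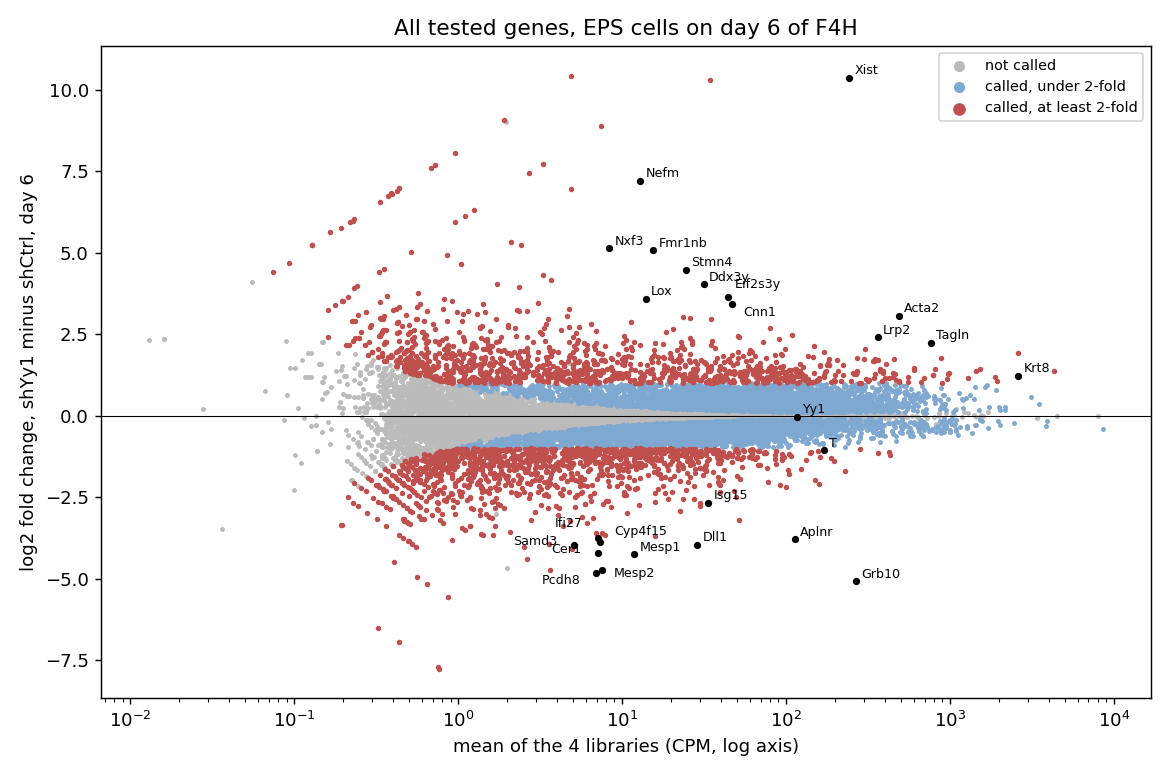
Log2 fold change (shYy1 minus shCtrl, day 6) of all 15927 tested genes against the mean level of the 4 libraries in CPM on a log axis. Grey points were not called, blue points were called under 2-fold and red points at least 2-fold. Yy1 sits at the zero line, while Xist (log2 10.36) and Grb10 (log2 -5.08) stand far from other genes of their level. Fitted values of genes with 0 counts in a group depend on the prior count.

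Among genes with a name and a mean of at least 5 CPM, the 10 largest falls were led by Grb10, Pcdh8, Mesp2, Mesp1 and Cer1. Grb10, an imprinted adaptor that dampens insulin and growth factor signalling (chromosome 11, start 11930499, end 12037428), fell from 523 and 511 CPM to 14.9 and 15.6 CPM (log2 -5.08 ± 0.059, adjusted p = 8.96e-58). The paraxial mesoderm protocadherin Pcdh8 stood at 12.6 and 14.2 CPM against 0.418 and 0.514 CPM (log2 -4.84 ± 0.37, adjusted p = 1.47e-09). A gap between the groups was part of the rule that picked these genes. The mesoderm factors Mesp1 (22.6 and 22.5 CPM against 1.25 and 1.09 CPM) and Mesp2 (13.9 and 15.4 CPM against 0.523 and 0.578 CPM) dropped to near 1 CPM or below it. Dll1, a Notch ligand, fell from 51.6 and 56.8 CPM to 3.14 and 3.85 CPM (log2 -3.97 ± 0.12, adjusted p = 8.64e-36), and the apelin receptor gene Aplnr from 213 and 208 CPM to 15.1 and 15.5 CPM (log2 -3.79 ± 0.067, adjusted p = 5.98e-48). Cer1 (log2 -4.22), Samd3 (log2 -3.97), Cyp4f15 (log2 -3.89) and the interferon-inducible gene Ifi27 (log2 -3.76) made up the rest.

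By the same rule, the 10 largest rises among genes with a name were Xist, Nefm, Nxf3, Fmr1nb, Stmn4, Ddx3y, Eif2s3y, Lox, Cnn1 and Acta2. Of these, Xist, Nxf3 and Fmr1nb lie on the X chromosome and Ddx3y and Eif2s3y on the Y. The rule left out predicted genes, among them the X-linked Gm364 (log2 10.29) and Gm18336 (log2 8.89), which rose more than Nefm. Nefm, the medium neurofilament chain, rose from 0.293 and 0.0472 CPM to 25.1 and 26.3 CPM (log2 7.20 ± 0.23, adjusted p = 3.43e-35). Stmn4, a neuronal microtubule regulator of the stathmin family, went from 2.05 and 2.17 CPM to 49.3 and 44.5 CPM (log2 4.47 ± 0.13, adjusted p = 3.29e-37). Nefm was near the floor in the controls and Stmn4 low; the rule that picked these genes asked for groups that do not overlap. Lox, which crosslinks collagen and elastin, rose from 2.63 and 1.65 CPM to 26.1 and 25.4 CPM (log2 3.59 ± 0.16, adjusted p = 3.30e-28). Nxf3 (0.341 and 0.567 CPM against 16.2 and 16.4 CPM) and Fmr1nb (0.683 and 1.09 CPM against 28.4 and 31.8 CPM) followed the same pattern. Ddx3y stood at 3.80 and 3.50 CPM against 62.7 and 56.2 CPM and Eif2s3y at 6.63 and 6.52 CPM against 82.6 and 81.3 CPM.

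**Figure D2:**
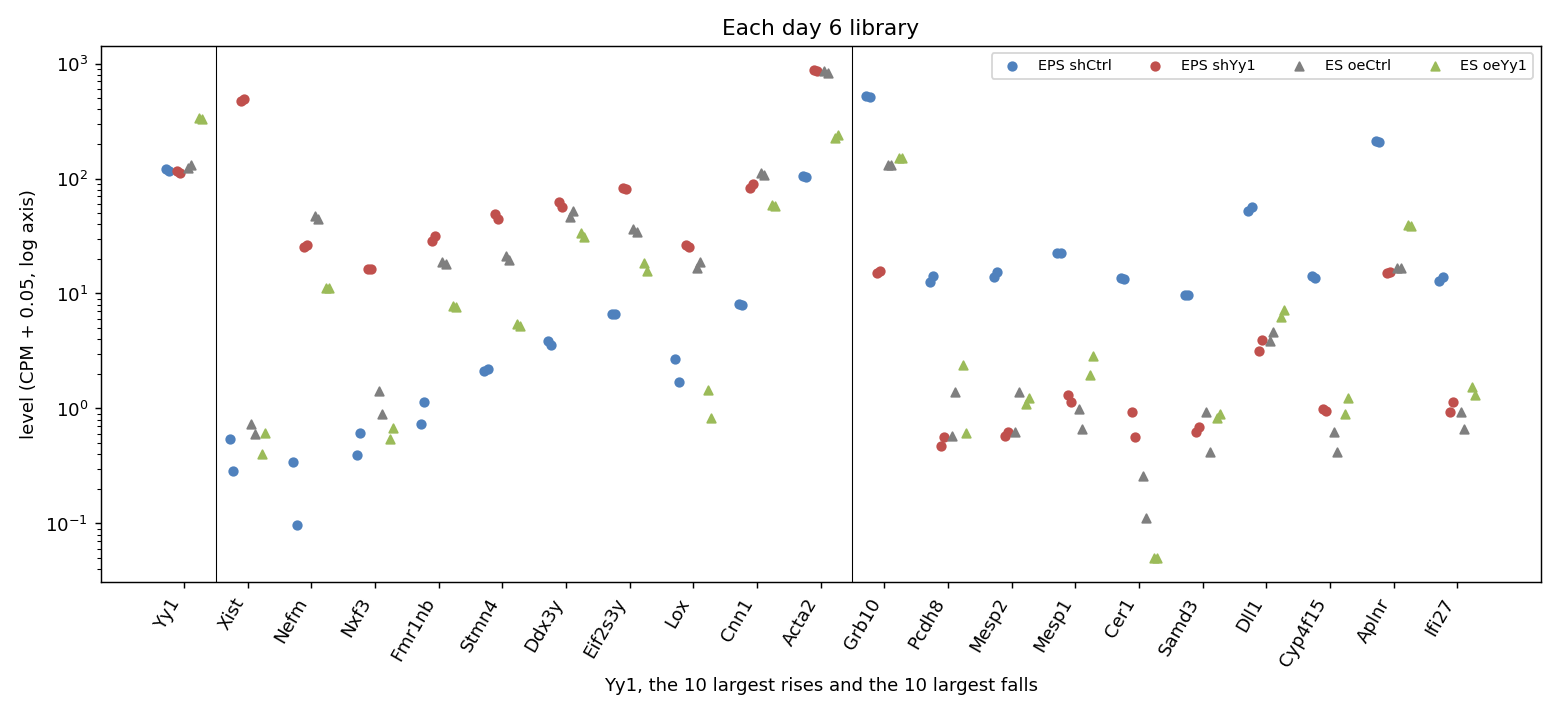
Levels of Yy1, the 10 largest rises and the 10 largest falls in each day 6 library (2 points per group), as CPM + 0.05 on a log axis. Circles are EPS cells (shCtrl blue, shYy1 red) and triangles ES cells (oeCtrl grey, oeYy1 green). Yy1 is raised only in the oeYy1 libraries, and for Acta2, Cnn1 and Aplnr the shYy1 points lie near the oeCtrl points.

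Smooth muscle and actin cytoskeleton genes rose as a group, many of them targets of serum response factor (SRF). All 16 listed genes were called higher, 13 of them at least 2-fold, with a median log2 of 1.70 against -0.01 over all genes tested. This list and those below were chosen with earlier results of these data known. The common direction of their members may therefore be partly built in. Acta2, smooth muscle alpha actin (chromosome 19, start 34240336, end 34255585), rose from 105 and 103 CPM to 872 and 868 CPM (log2 3.06 ± 0.048, adjusted p = 6.33e-51). The actin-binding protein genes moved with it. Tagln went from 264 and 272 CPM to 1272 and 1247 CPM (log2 2.23 ± 0.044, adjusted p = 2.44e-45), and Cnn1 from 8.00 and 7.89 CPM to 82.0 and 89.8 CPM (log2 3.43 ± 0.081, adjusted p = 2.04e-41). Flna, a filamin that crosslinks actin and lies on the X chromosome, went from 1044 and 1113 CPM to 4094 and 4101 CPM (log2 1.93 ± 0.042, adjusted p = 3.41e-43). The smallest rises were those of Srf itself (90.3 and 95.6 CPM against 128 and 135 CPM, log2 0.50) and of Cyr61 (301 and 296 CPM against 423 and 426 CPM, log2 0.50). The summed level of the list was 5542 and 5640.0 CPM in shCtrl and 13599 and 13556 CPM under shYy1.

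SRF binds the CArG box, and the promoter windows of the 4 list members that hold one are shown because the list includes SRF targets. Windows run from 250 bases before to 50 after a start site of the RefSeq annotation (GRCm38.p6), 12 of the 16 genes had one, and capitals mark each CArG box found on either strand, written 5′ to 3′ along the gene.
Srf (chr17:46556113-46556412, minus strand): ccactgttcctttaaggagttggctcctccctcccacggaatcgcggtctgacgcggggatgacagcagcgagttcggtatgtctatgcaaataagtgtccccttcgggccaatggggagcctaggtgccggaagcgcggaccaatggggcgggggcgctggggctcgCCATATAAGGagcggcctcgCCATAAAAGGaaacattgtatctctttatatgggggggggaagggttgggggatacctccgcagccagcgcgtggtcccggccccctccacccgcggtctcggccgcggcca
Myl9 (chr2:156775214-156775513, plus strand): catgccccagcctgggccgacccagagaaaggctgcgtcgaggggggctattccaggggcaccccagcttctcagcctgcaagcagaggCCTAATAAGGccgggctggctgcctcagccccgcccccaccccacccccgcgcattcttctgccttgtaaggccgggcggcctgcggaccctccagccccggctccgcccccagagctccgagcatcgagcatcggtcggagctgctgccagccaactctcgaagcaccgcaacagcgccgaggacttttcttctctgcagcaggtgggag
Vcl (chr14:20929148-20929447, plus strand): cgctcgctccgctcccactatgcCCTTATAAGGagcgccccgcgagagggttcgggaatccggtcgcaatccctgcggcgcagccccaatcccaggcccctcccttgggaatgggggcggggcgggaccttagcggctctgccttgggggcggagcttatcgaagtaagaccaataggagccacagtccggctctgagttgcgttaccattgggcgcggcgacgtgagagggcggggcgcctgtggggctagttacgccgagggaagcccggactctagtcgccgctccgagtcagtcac
Cnn2 (chr10:79988350-79988649, plus strand): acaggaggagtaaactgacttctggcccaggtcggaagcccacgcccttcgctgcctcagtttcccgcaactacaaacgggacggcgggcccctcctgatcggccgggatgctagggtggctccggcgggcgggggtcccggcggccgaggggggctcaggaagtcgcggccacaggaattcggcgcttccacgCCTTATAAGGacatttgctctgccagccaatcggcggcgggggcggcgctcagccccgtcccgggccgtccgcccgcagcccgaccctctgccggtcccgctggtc
The window of Srf holds 2 boxes and the other 3 windows 1 each. Myl9, a myosin light chain gene, rose from 8.34 and 9.02 CPM to 39.2 and 35.2 CPM (log2 2.10). The focal adhesion gene Vcl rose from 136 and 137 CPM to 469 and 449 CPM (log2 1.75), and Cnn2, a calponin gene, from 316 and 316 CPM to 660.4 and 670.5 CPM (log2 1.07). A CArG box stood in 4 of 12 list windows, or 33.3%, against 1.63% of all 32851 windows. Because the list was drawn up with SRF targets in it, a high share was built in. The cardiac list (6 genes lower, 3 higher) held one in 3 of 11 windows, or 27.3%. The mesendoderm list (14 lower, 2 higher) held one in 2 of 15, or 13.3%. Among tested genes with a window it stood in 3.0% of those at least 2-fold higher, 1.69% of those at least 2-fold lower and 1.67% of all. A match describes the letters and not a bound site.

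Keratins, the intermediate filaments of epithelia, rose as well. Of 7 tested 6 were called higher and none lower (median log2 1.18). Krt8 rose from 1545 and 1574 CPM to 3571 and 3701 CPM (log2 1.22 ± 0.041, adjusted p = 6.86e-34), and its partner Krt18 from 1157 and 1149 CPM to 2633 and 2597 CPM (log2 1.18 ± 0.040, adjusted p = 1.18e-33). Krt7 (log2 0.87) and Krt19 (log2 0.61) rose less than 2-fold. Cdh1, which encodes E-cadherin, rose from 569 and 569.9 CPM to 1411 and 1381 CPM (log2 1.29 ± 0.041, adjusted p = 3.88e-35), and the tight junction gene Cldn4 from 343 and 344 CPM to 769 and 775 CPM (log2 1.17 ± 0.043, adjusted p = 3.15e-32). Snai1, a repressor of Cdh1 and driver of epithelial-mesenchymal transition, fell from 85.7 and 81.5 CPM to 20.5 and 23.2 CPM (log2 -1.94 ± 0.077, adjusted p = 2.70e-30), and the matrix metalloproteinase gene Mmp2 fell too (log2 -1.47). Across the 18 genes on epithelial and mesenchymal character 9 were higher and 7 lower, with both epithelial and mesenchymal members on each side. Vim, Zeb2 and Cdh11 were called higher (log2 0.17, log2 0.68 and log2 0.37), Epcam and Cldn3 lower (log2 -0.43 and log2 -0.34); these 5 were picked after their values were seen, as are list members named below only because few of a list moved one way.

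Basement membrane genes, which parietal endoderm makes in bulk, were mostly higher: 11 of 17 tested were called higher, 4 at least 2-fold, and 5 lower (median log2 0.42). The type IV collagen genes Col4a1 (321 and 323 CPM against 874 and 887 CPM, log2 1.45) and Col4a2 (266 and 270.0 CPM against 645 and 667 CPM, log2 1.29) rose together. Hspg2, the perlecan gene, rose from 828 and 828 CPM to 2209.8 and 2278 CPM (log2 1.44 ± 0.041, adjusted p = 2.10e-37), and Nid1, which links laminin to collagen, from 89.1 and 93.4 CPM to 265 and 267 CPM (log2 1.54 ± 0.047, adjusted p = 3.43e-36). The laminin chain gene Lama1 (log2 -1.14), Nid2 (log2 -0.47), Stra6 (log2 -1.92), Pth1r (log2 -0.71) and Fst (log2 -0.45) were the 5 lower members.

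Mesoderm and primitive streak genes fell as a group. Of 17 tested mesendoderm genes 14 were called lower, 11 of them at least 2-fold, and 2 higher (median log2 -1.38). T, which encodes brachyury, the streak and notochord factor, fell from 229.5 and 230.0 CPM to 107 and 113 CPM (log2 -1.06 ± 0.049, adjusted p = 2.47e-27). Fgf8, the FGF ligand of the streak, fell from 164 and 166 CPM to 34.8 and 37.0 CPM (log2 -2.20 ± 0.058, adjusted p = 5.12e-39), and Lhx1, a factor of the anterior streak and anterior visceral endoderm, from 132 and 118 CPM to 29.1 and 31.5 CPM (log2 -2.05 ± 0.069, adjusted p = 5.61e-34). The 2 higher genes were Wnt3 (49.0 and 50.7 CPM against 95.7 and 93.3 CPM, log2 0.92), a ligand that initiates the streak, and Mixl1 (16.3 and 16.6 CPM against 35.3 and 37.4 CPM, log2 1.14). Eomes, shared by streak and trophoblast, fell from 107 and 105 CPM to 65.3 and 65.3 CPM (log2 -0.70 ± 0.056, adjusted p = 1.48e-16).

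Notch signalling genes, which work in early mesoderm, were more often lower than higher. In the Notch list 10 of 14 tested genes were lower, 5 at least 2-fold, and 3 higher (median log2 -0.77). The ligand gene Dll3 fell from 91.7 and 93.7 CPM to 9.46 and 10.7 CPM (log2 -3.21 ± 0.086, adjusted p = 1.30e-38), Jag1 from 35.0 and 35.0 CPM to 14.9 and 18.4 CPM (log2 -1.08 ± 0.10, adjusted p = 4.18e-15), and the receptor gene Notch1 less (log2 -0.73). Jag2 (log2 0.25), Notch2 (log2 0.31) and Notch3 (log2 0.16) were the 3 higher members, none of them by 2-fold. The retinoic acid list was mixed, with 6 of 15 genes lower and 4 higher (median log2 -0.67). Crabp1, an intracellular retinoic acid carrier, fell from 29.3 and 29.7 CPM to 2.3 and 2.25 CPM (log2 -3.69 ± 0.17, adjusted p = 5.00e-24), and Cyp26a1, which degrades retinoic acid, from 241 and 237 CPM to 56.5 and 65.3 CPM (log2 -1.98 ± 0.054, adjusted p = 1.02e-37). The synthesis gene Aldh1a2 fell (log2 -1.35), whereas Aldh1a1 (0.264 against 2.33 CPM, means of 2, log2 3.11) and Aldh1a3 (log2 1.99) rose.

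Signalling targets downstream of growth factors were lower more often than higher. Of 19 genes induced through ERK, the kinase at the end of the FGF pathway, 13 were called lower and 6 higher (median log2 -0.51). The immediate early factor Egr1 fell from 259 and 253 CPM to 62.1 and 57.6 CPM (log2 -2.10 ± 0.053, adjusted p = 2.50e-39), and Fos from 187 and 187 CPM to 59.3 and 61.4 CPM (log2 -1.63 ± 0.052, adjusted p = 4.27e-35). Ier2 fell (log2 -0.97), while Ier3 rose from 26.8 and 30.0 CPM to 68.0 and 71.9 CPM (log2 1.30). All 5 Sprouty and Spred feedback inhibitors on the list (Spry1, Spry2, Spry4, Spred1 and Spred2) were lower, with log2 between -0.90 and -0.31.

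In the BMP list 10 of 16 genes were lower and 4 higher (median log2 -0.36). The ligand genes Bmp7 (56.0 and 54.7 CPM against 17.0 and 16.6 CPM, log2 -1.72) and Bmp4 (225 and 226 CPM against 156 and 162 CPM, log2 -0.50) fell, as did the BMP target Id1 (log2 -0.56). Smad7, an inhibitory SMAD, rose (log2 0.59). Of 11 Nodal and activin genes 5 were lower and 2 higher. Tdgf1, the Nodal coreceptor Cripto, fell from 347 and 350.4 CPM to 114 and 102 CPM (log2 -1.69 ± 0.048, adjusted p = 1.02e-37), its relative Cfc1 from 11.9 and 11.9 CPM to 1.20 and 1.54 CPM (log2 -3.13) and the feedback inhibitor Lefty2 from 34.6 and 37.3 CPM to 13.9 and 13.4 CPM (log2 -1.40). Nodal itself (39.8 and 40.1 CPM against 54.0 and 53 CPM, log2 0.42) and Inhba (log2 1.02) were the 2 higher members. The Wnt list was mixed, with 8 of 17 lower and 5 higher (median log2 0.04). Its target genes Lef1 (log2 -1.38) and Sp5 (log2 -1.07) and the secreted inhibitor Sfrp1 (67.4 and 65.4 CPM against 12.3 and 14.3 CPM, log2 -2.33) fell, while Axin2 rose (log2 0.44). In the 16-library fit of both stages, whose spread is larger, the falls of Lef1 (adjusted p = 0.191) and Sp5 (adjusted p = 0.257) were not called.

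Cardiac and blood genes, which mark later mesoderm, fell more often than they rose. Among 12 tested cardiac and muscle genes 6 were lower and 3 higher. Isl1, of the second heart field, fell from 14.8 and 12.7 CPM to 2.3 and 2.12 CPM (log2 -2.62 ± 0.17, adjusted p = 4.09e-20), and Hand2 from 5.07 and 5.06 CPM to 1.36 and 1.35 CPM (log2 -1.90). The sarcomere genes Myh7 (9.07 and 6.80 CPM against 37.8 and 37.4 CPM, log2 2.25) and Actc1 (4.39 and 6.00 CPM against 12.1 and 13.9 CPM, log2 1.32) rose, together with Nkx2-5 (log2 1.51). Of 12 tested endothelial and blood genes 8 were lower, all at least 2-fold, and 1 higher (median log2 -1.35, which did not move with 2 genes set at their bounds). The embryonic globin gene Hbb-bh1 stood at 1.51 and 1.56 CPM in shCtrl and had 0 counts in both libraries labelled shYy1, at least 8.79-fold lower against a floor of 3 counts per library. Lmo2 (5.80 and 6.76 CPM against 2.77 and 1.99 CPM) and Pecam1 (3.95 and 3.59 CPM against 1.31 and 1.73 CPM) also fell, whereas Runx1 rose from 20.2 and 17.6 CPM to 51.7 and 48.6 CPM (log2 1.41).

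In the neural list 7 of 17 tested genes were higher, 4 at least 2-fold, and 1, Elavl4 (log2 -1.42), was lower. The 4 that rose at least 2-fold encode cytoskeletal proteins of neurons and progenitors. Besides Nefm these were Nefl, the light neurofilament chain (5.32 and 4.91 CPM against 41.6 and 42.5 CPM, log2 3.04 ± 0.10, adjusted p = 2.97e-34), Tubb3, a neuronal beta tubulin (6.00 and 5.57 CPM against 43.2 and 49.4 CPM, log2 3.0 ± 0.10, adjusted p = 3.89e-34), and Nes, an intermediate filament of progenitors (90.1 and 86.6 CPM against 268 and 273 CPM, log2 1.62). The neural transcription factors stayed low: Sox1 and Neurog2 were under 0.2 CPM on average in both groups, and Pax6 stood at 1.68 and 1.75 CPM.

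Trophoblast genes were more often higher than lower. Of 28 listed genes 22 were tested, of which 14 were higher, 8 at least 2-fold, and 3 lower (median log2 0.54, the same with Rhox9 at its bound). The X-linked homeobox genes expressed in placenta rose most: Rhox6 stood at 0.146 and 0 CPM against 9.77 and 9.63 CPM, and Rhox9 had 0 counts in both controls and 3.87 and 3.72 CPM under shYy1, at least 26.4-fold higher. Esx1, another placental X-linked homeobox gene, rose from 12.7 and 13.8 CPM to 40.2 and 44.6 CPM (log2 1.67 ± 0.094, adjusted p = 2.52e-23), and Wnt7b from 23.2 and 22 CPM to 58.7 and 64.3 CPM (log2 1.44 ± 0.076, adjusted p = 1.09e-24). Reads shared between the near-identical Rhox copies could be split or lost, so their levels are uncertain. The 3 lower genes were Hand1, Cdx2 and Eomes. Hand1, a factor of giant cells and lateral mesoderm, fell from 139.9 and 148 CPM to 63.1 and 64.5 CPM (log2 -1.17 ± 0.056, adjusted p = 1.38e-26), and Cdx2, the trophectoderm factor, from 40.0 and 38.4 CPM to 22.2 and 23.1 CPM (log2 -0.79 ± 0.080, adjusted p = 4.15e-13). Gata3 rose from 11.8 and 10.0 CPM to 20.9 and 17.7 CPM (log2 0.83 ± 0.11, adjusted p = 2.76e-09). Of genes that define mature trophoblast, Tpbpa, Prl2c2 and Synb had 0 counts in all 4 libraries. Gcm1, also on the list, was low but called higher (0.244 and 0.142 CPM against 1.15 and 1.03 CPM, log2 2.46, adjusted p = 2.22e-04). Elf5, a trophoblast stem cell factor, stood at 0.0975 and 0.142 CPM against 0.209 and 0.385 CPM, too low to be tested. The summed level of the 28 genes ran from 628 to 632 CPM in shCtrl and from 690 to 697 CPM under shYy1. Part of the trophoblast rise was present before F4H. In undifferentiated cells, by the 16-library fit, 11 of 22 tested list genes were called higher and 2 lower (median log2 0.74). Among those higher were the X-linked Rhox6 (log2 1.67), Rhox9 (log2 2.63) and Esx1 (log2 1.34).

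Primitive endoderm regulators were lower more often than higher, 6 against 2 of 11 tested (median log2 -0.34). Pdgfra, the receptor that marks the lineage, fell from 60.5 and 65.7 CPM to 15.7 and 13.3 CPM (log2 -2.11 ± 0.088, adjusted p = 2.11e-29). The transcription factor genes Gata4 (47.3 and 50.2 CPM against 19.4 and 19.6 CPM, log2 -1.32 ± 0.086, adjusted p = 1.55e-20) and Sox17 (12.9 and 9.5 CPM against 3.61 and 4.37 CPM, log2 -1.5 ± 0.18, adjusted p = 1.30e-10) fell likewise. Gata6 fell little (15.2 and 17.1 CPM against 13.1 and 12.5 CPM, log2 -0.34 ± 0.12, adjusted p = 0.00991), and its call was lost without shCtrl replicate 2 (adjusted p = 0.142), without shYy1 replicate 2 (adjusted p = 0.0677), in DESeq2 (adjusted p = 0.106) and in the 16-library fit (adjusted p = 0.194). Klf6 (log2 0.80) and Sox7 (log2 2.23) were the 2 higher members. Because Pdgfra, Gata4 and Sox17 are also active in mesoderm or definitive endoderm, the list does not name a cell type by itself.

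Among 23 genes of visceral endoderm uptake and transport only 11 could be tested, 3 of them higher and 3 lower. The products that define this tissue were near 0 in both groups, with Afp, Ttr, Apoa1 and Alb each under 0.3 CPM on average. Lrp2, the endocytic receptor megalin, rose from 119 and 112 CPM to 627 and 591 CPM (log2 2.40 ± 0.047, adjusted p = 1.25e-45), and its partner Cubn was low (0.829 and 0.472 CPM against 1.93 and 1.73 CPM, log2 1.5). Amn, which anchors Cubn, was the other higher member (log2 1.81), and Apoe (log2 -0.75), Rbp4 (log2 -1.06) and Cited1 (log2 -1.09) fell. For the anterior visceral endoderm 6 of 9 genes were lower and 1, Fzd5, higher (log2 0.69). The secreted Nodal and BMP antagonist Cer1 fell from 13.7 and 13.4 CPM to 0.888 and 0.514 CPM, Otx2 from 22.6 and 24.4 CPM to 8.26 and 7.77 CPM (log2 -1.55 ± 0.12, adjusted p = 7.45e-17) and Shisa2 from 11.1 and 11.9 CPM to 5.28 and 5.39 CPM (log2 -1.11).

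The pluripotency factors Pou5f1, Nanog and Klf4 showed no called difference between the day 6 groups. Pou5f1 stood at 31.0 and 34.2 CPM in shCtrl and 37.1 and 33.7 CPM under shYy1 (log2 0.12 ± 0.077, adjusted p = 0.164), Nanog at 11.9 and 12.2 CPM and 11.1 and 9.57 CPM (log2 -0.21 ± 0.12, adjusted p = 0.104) and Klf4 at 11.6 and 10.3 CPM and 12.5 and 12.2 CPM (log2 0.18 ± 0.12, adjusted p = 0.188). Undifferentiated shCtrl cells held 274, 557 and 599 CPM of Pou5f1, Nanog and Klf4. Sox2 was slightly lower (14 and 13.1 CPM against 11.7 and 11.2 CPM, log2 -0.25 ± 0.11, adjusted p = 0.0454), a call that was lost in 10 of the 11 alternative settings. Of 20 naive genes 7 were higher and 4 lower (median log2 0.23): Tfcp2l1 rose from 12.1 and 11.7 CPM to 32.2 and 32.7 CPM (log2 1.45) and Klf2 from 4.49 and 5.43 CPM to 15.5 and 16.5 CPM (log2 1.69), while Sall1 (log2 -1.30) and Socs3 (log2 -1.0) fell. Dppa5a went from 1.02 and 0.945 CPM to 8.31 and 8.15 CPM (log2 3.06 ± 0.21, adjusted p = 2.66e-19) and L1td1 from 47.7 and 54.3 CPM to 117 and 116 CPM (log2 1.19), both on the core list of 12 genes, of which 6 were higher and 4 lower. Sall4 (log2 -0.82) and the RNA-binding protein gene Lin28a (log2 -0.49) were among the lower. Formative and primed epiblast genes were more often lower, 11 of 17 against 4 higher. Fgf5 fell from 36.6 and 32.3 CPM to 12.1 and 11.9 CPM (log2 -1.52 ± 0.10, adjusted p = 2.70e-20), and the zinc finger gene Zic2 fell by a similar amount (log2 -1.5).

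Hox genes, which pattern the body axis, were low, and of 34 tested 11 fell and 3 rose. Over all genes tested 30.4% were called lower and 30.9% higher, so the share of falls was near that of all genes. The anterior genes Hoxb1 (5.61 and 4.87 CPM against 0.732 and 0.578 CPM, log2 -2.97) and Hoxb3 (3.76 and 4.20 CPM against 1.15 and 0.257 CPM, log2 -2.42) fell. The 3 that rose were from the posterior end, namely Hoxb9 (5.27 and 3.97 CPM against 15.7 and 15.3 CPM, log2 1.75), Hoxb13 (log2 2.00) and Hoxc13 (1.22 and 1.09 CPM against 3.71 and 3.72 CPM, log2 1.68). Hoxd9, unlike Hoxb9, was called lower (log2 -0.40), and 20 genes were not called. Hoxb1 and Hoxb3 were named for their small p, and the remaining falls are not given. No trend along the body axis can therefore be read from these genes.

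Interferon-stimulated genes fell as a group. Such genes encode antiviral effectors and antigen presentation proteins that many cells also express at a low level without infection. All 18 listed genes were called lower, 12 at least 2-fold, with a median log2 of -1.62. This list, too, was chosen with earlier results of these data known, so its common direction may be partly built in. Isg15, a ubiquitin-like modifier, fell from 56.9 and 59.1 CPM to 8.88 and 9.37 CPM (log2 -2.67 ± 0.10, adjusted p = 3.16e-32). Bst2, or tetherin, fell from 148 and 152 CPM to 31.9 and 37.7 CPM (log2 -2.12 ± 0.068, adjusted p = 3.24e-30), and Oasl2 from 78.8 and 81.1 CPM to 15.8 and 16.4 CPM (log2 -2.31 ± 0.081, adjusted p = 4.41e-33). Ifitm1, a membrane protein that is also a marker of early mesoderm, went from 152 and 162 CPM to 47.4 and 51.4 CPM (log2 -1.67). B2m had the smallest fall (log2 -0.31). The list summed to 1533 and 1614 CPM in shCtrl and to 729 and 744 CPM under shYy1, and in undifferentiated cells to 274 to 303 CPM.

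Interferon-induced factors bind repeats of GAAA, and the windows of 2 of the genes just named, which hold a pair of GAAA with any 2 bases between, are shown for that reason. Capitals mark every match on either strand, where overlapping matches join, in windows of the same kind as above.
Isg15 (chr4:156200769-156201068, minus strand): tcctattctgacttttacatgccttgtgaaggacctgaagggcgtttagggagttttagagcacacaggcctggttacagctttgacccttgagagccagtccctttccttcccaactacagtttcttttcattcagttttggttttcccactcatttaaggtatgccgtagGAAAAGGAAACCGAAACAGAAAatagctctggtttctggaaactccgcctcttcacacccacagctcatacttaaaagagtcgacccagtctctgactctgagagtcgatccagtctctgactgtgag
Bst2 (chr8:71537423-71537722, minus strand): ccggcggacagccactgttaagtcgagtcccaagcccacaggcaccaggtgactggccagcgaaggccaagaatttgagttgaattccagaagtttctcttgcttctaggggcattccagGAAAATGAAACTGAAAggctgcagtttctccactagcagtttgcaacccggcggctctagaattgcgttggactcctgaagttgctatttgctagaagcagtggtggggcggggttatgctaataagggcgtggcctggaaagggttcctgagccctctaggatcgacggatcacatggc
The window of Isg15 holds 3 overlapping matches and that of Bst2 holds 2. Over the list 8 of 17 windows, or 47.1%, held the paired letters, against 3.44% of all 32851 windows. Because the list was made of interferon-stimulated genes, a high share was built in. They stood in 7.08% of windows of genes at least 2-fold lower, in 3.62% of those at least 2-fold higher and in 3.51% of all tested genes with a window.

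Genes induced by p53 were mostly higher, 15 of 19 against 1 lower, and 6 by at least 2-fold (median log2 0.56). Mdm2, the p53 ubiquitin ligase, rose from 264 and 264 CPM to 584 and 590.1 CPM (log2 1.15 ± 0.043, adjusted p = 7.93e-32), Ccng1 from 448 and 434 CPM to 905 and 889.6 CPM (log2 1.03 ± 0.044, adjusted p = 1.75e-28) and Perp, a desmosome and apoptosis gene, from 206 and 209.8 CPM to 534 and 538 CPM (log2 1.36 ± 0.043, adjusted p = 4.19e-35). Cdkn1a, the cell cycle inhibitor p21, rose less (248 and 261 CPM against 350.5 and 361 CPM, log2 0.48), and Sesn1 was the lower member (log2 -0.73). Genes of G2 and mitosis were lower in 18 of 20 cases with none higher, but none reached 2-fold (median log2 -0.38). Aurkb fell from 97.6 and 94.7 CPM to 51.4 and 50.7 CPM (log2 -0.91) and Ccnb2 from 159 and 159 CPM to 92.3 and 92.0 CPM (log2 -0.79).

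Growth and metabolism genes shifted by smaller steps. Of 40 ribosomal protein genes 32 were lower and 1, the X-linked Rpl10, higher (log2 0.22), with a median log2 of -0.33 and no 2-fold change. Rpl28 (log2 -0.63) and Rpl3 (log2 -0.60) were among the larger falls. Glycolytic genes were lower in 15 of 21 cases and higher in 4. Aldoa fell from 955 and 967 CPM to 671 and 683 CPM (log2 -0.50), and Aldoc (log2 -1.98) was the 1 member to fall by at least 2-fold, while the glucose transporter gene Slc2a1 rose from 1145 and 1165 CPM to 2243 and 2226 CPM (log2 0.95). Oxidative phosphorylation genes were lower in 17 of 30 cases and higher in 4, between log2 -0.51 and 0.29. Cholesterol synthesis and uptake genes were higher in 16 of 20 cases (median log2 0.41). Dhcr7 was the lower member (log2 -0.50).

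Imprinted genes, expressed from 1 parental allele, changed in both directions: 13 of 26 were higher and 10 lower, with 5 at least 2-fold each way. Beside the fall of Grb10, Slc38a4 rose from 116 and 119.9 CPM to 495 and 485 CPM (log2 2.06 ± 0.045, adjusted p = 3.53e-43), Impact from 124 and 121 CPM to 416 and 417 CPM (log2 1.76 ± 0.046, adjusted p = 2.05e-39) and Peg10 from 2417 and 2421 CPM to 6229.6 and 6259.6 CPM (log2 1.37 ± 0.040, adjusted p = 3.31e-37). The maternally expressed genes H19 (log2 -1.22) and Phlda2 (log2 -1.59) fell and the paternally expressed Nnat (log2 1.68) and Plagl1 (log2 1.43) rose, all 4 named after their values were seen. Igf2, which shares an imprinting region with H19, rose slightly (log2 0.16), and the paternally expressed Dlk1 fell (log2 -1.12). Zfp57, which protects imprints, fell from 194 and 192 CPM to 90.9 and 82.7 CPM (log2 -1.15 ± 0.051, adjusted p = 3.11e-28). These RNA levels carry no allele information.

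Chromatin genes showed few changes of 2-fold. Of 15 DNA methylation genes 6 were lower and 4 higher, with Uhrf1, the maintenance factor, at 251 and 252 CPM against 152 and 157 CPM (log2 -0.70) and the oxidase Tet3 at 58.5 and 55.6 CPM against 107 and 101 CPM (log2 0.87). Dnmt3l was low in both groups (0.195 and 0.520 CPM against 1.57 and 1.09 CPM, log2 1.89 ± 0.42, adjusted p = 1.06e-04). No gene of INO80 (3 of 13 higher, 4 lower), of cohesin and looping (6 of 12 higher, 3 lower), of PRC2 (2 of 10 higher, 4 lower) or of the H3K4 methylase and deacetylase list (7 of 16 higher, 4 lower) changed 2-fold. In these YY1-linked complexes Ino80d (log2 0.70), Kmt2a (log2 0.78), Stag1 (log2 0.62) and the X-linked Rbbp7 (log2 0.58) and Kdm5c (log2 0.62) rose. Actr5 (log2 -0.73), Ezh1 (log2 -0.78), Ezh2 (log2 -0.51) and the X-linked Hdac6 (log2 -0.29) fell. Of 8 tested germline genes 1, Ddx4, was called (log2 0.57), a call lost without shCtrl replicate 2 (adjusted p = 0.105), without shYy1 replicate 2 (adjusted p = 0.303) and in DESeq2 (adjusted p = 0.0590). No gene of the 2-cell-like state was high enough to be tested.

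Fibroblast genes, which feeder cells would bring, did not move one way. Of 20 tested 9 were higher and 7 lower (median log2 0.22), and the list summed to 1072 and 1063 CPM in shCtrl and 1333 and 1346 CPM under shYy1. Col1a1 rose from 174 and 174 CPM to 317 and 331 CPM (log2 0.89 ± 0.045, adjusted p = 2.26e-25) and Col5a2 from 9.85 and 9.17 CPM to 44.2 and 43.4 CPM (log2 2.20 ± 0.095, adjusted p = 1.23e-28), whereas the mesenchyme factor Twist1 fell from 38.5 and 37.9 CPM to 12.6 and 14.4 CPM (log2 -1.5 ± 0.094, adjusted p = 3.73e-21). Fap and S100a4 were under 0.2 CPM in both groups, and the part of feeder cells in the smooth muscle and collagen rises was not tested.

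**Figure D3:**
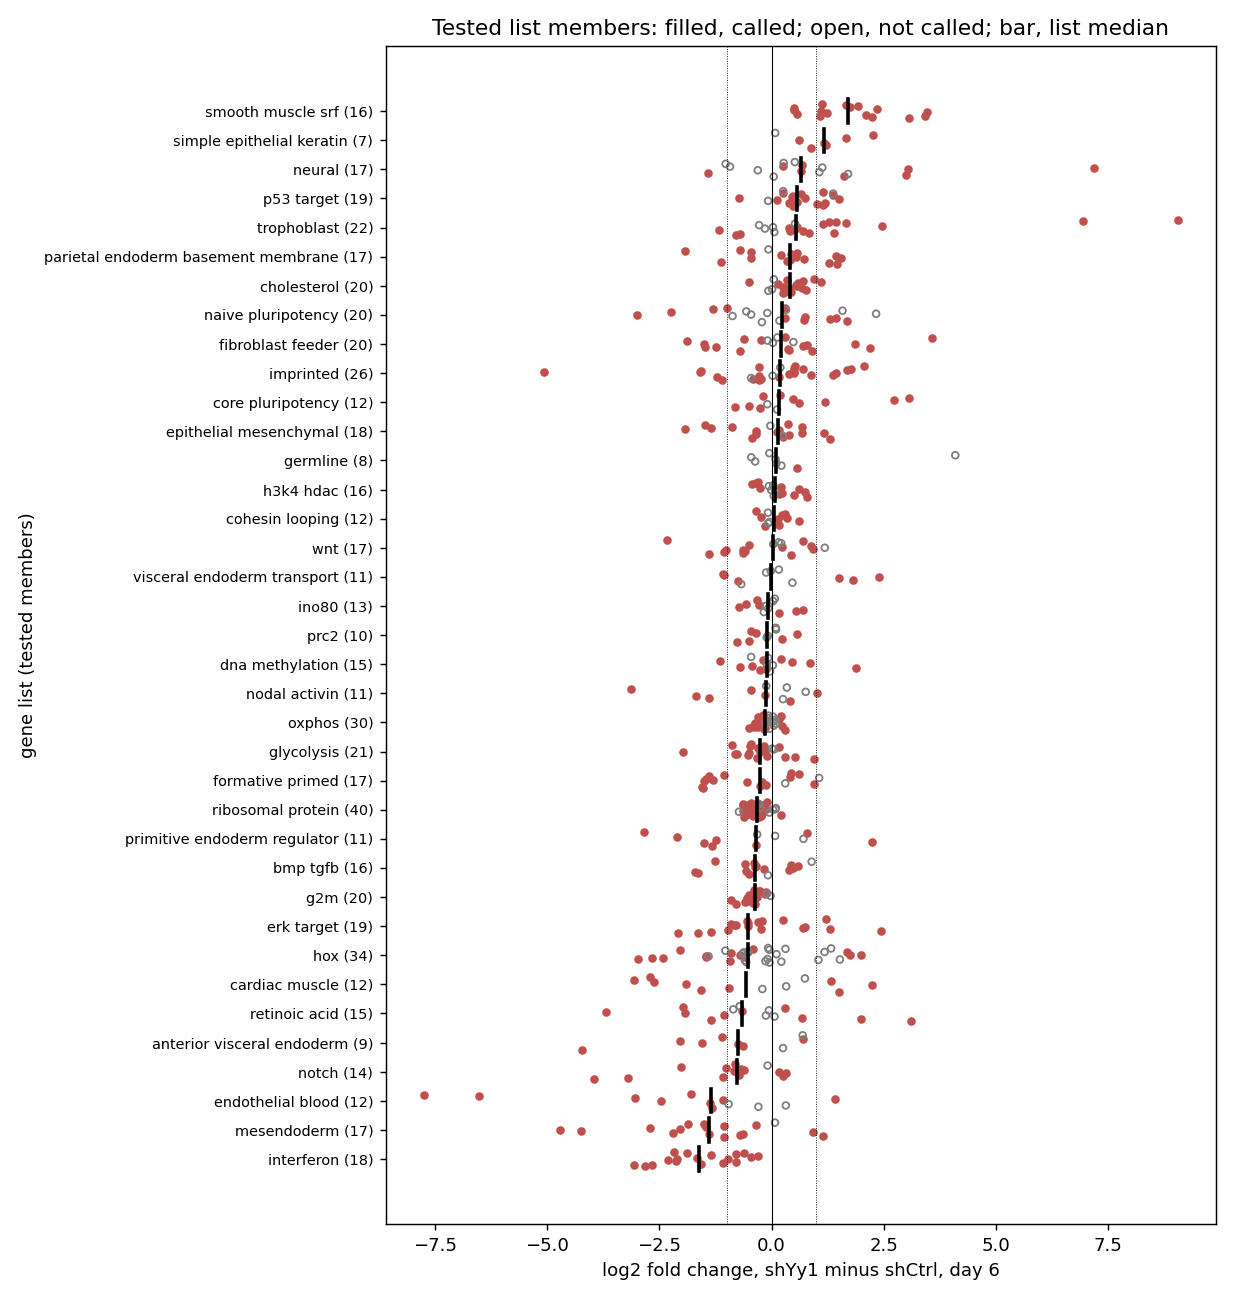
Log2 fold change (shYy1 minus shCtrl, day 6) of the tested members of 37 gene lists, ordered by list median (black bar), with the number tested in brackets. Filled points were called and open points were not, and dotted lines mark 2-fold. All 16 smooth muscle genes lie right of 0 and all 18 interferon genes left of it, while most lists straddle it.

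The day 6 response was then set against the same hairpin label in undifferentiated EPS cells, with both effects and their difference taken from a fit of 16 libraries, so that CPM values in this comparison are on that scale. Undifferentiated cells had 7374 of 17207 genes called (42.9%), with 8.94% at least 2-fold higher and 4.77% at least 2-fold lower. The difference between stages was called for 7133 (41.5%), 21.4% of all as more positive on day 6 and 20.1% as more negative. Of 1126 genes at least 2-fold higher on day 6 and tested in both fits, 217 (19.3%) were at least 2-fold higher in undifferentiated cells too, which was 18.4% of the 1181 genes higher there. For falls 107 genes were shared, 8.55% of the 1252 lower on day 6 and 14.8% of the 725 lower before. In the opposite direction 177 of the genes lower on day 6 had been at least 2-fold higher in undifferentiated cells, and 74 of those higher on day 6 at least 2-fold lower. Both stages compared separate libraries of the same 2 labels. Across 15749 genes the 2 effects had a Pearson correlation of 0.08, a description across genes that are not independent.

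Yy1 itself had one of the differences, log2 0.95 ± 0.10 (adjusted p = 1.67e-07), since it was 69.3 against 136 CPM before and 114 against 116 CPM on day 6. Of the 40 genes taken into this test 39 could be tested and 23 were called. Some effects reversed. Krt8 was 8.74 against 17.0 CPM in undifferentiated cells (log2 -0.96) and higher under shYy1 on day 6 (log2 1.23), a difference of log2 2.19 (adjusted p = 4.03e-05). Dnmt3l fell before (58.0 to 8.84 CPM) and was low on day 6 in both groups. Nanog rose under shYy1 in undifferentiated cells (557 to 1159 CPM) but not on day 6. The difference between stages was not called, which does not show equal effects, for Nxf3 (log2 5.00 before and 5.14 on day 6), Fmr1nb (log2 4.70 and 5.08), Nefm (log2 5.43 and 7.20), Pdgfra (log2 -1.62 and -2.11) and Kdm5c (log2 0.79 and 0.63). In other settings it was called for Nefm (4 settings, adjusted p = 0.0144 to 0.0464), and without undifferentiated shCtrl replicate 1 for Pdgfra (adjusted p = 0.0475) and Kdm5c (adjusted p = 0.0322). Grb10 was lower at both stages, by log2 -1.46 before and -5.07 on day 6. Cer1, Aplnr and Stmn4 had 0 counts in all 4 undifferentiated libraries, so their day 6 changes had nothing to be compared with.

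**Figure D4:**
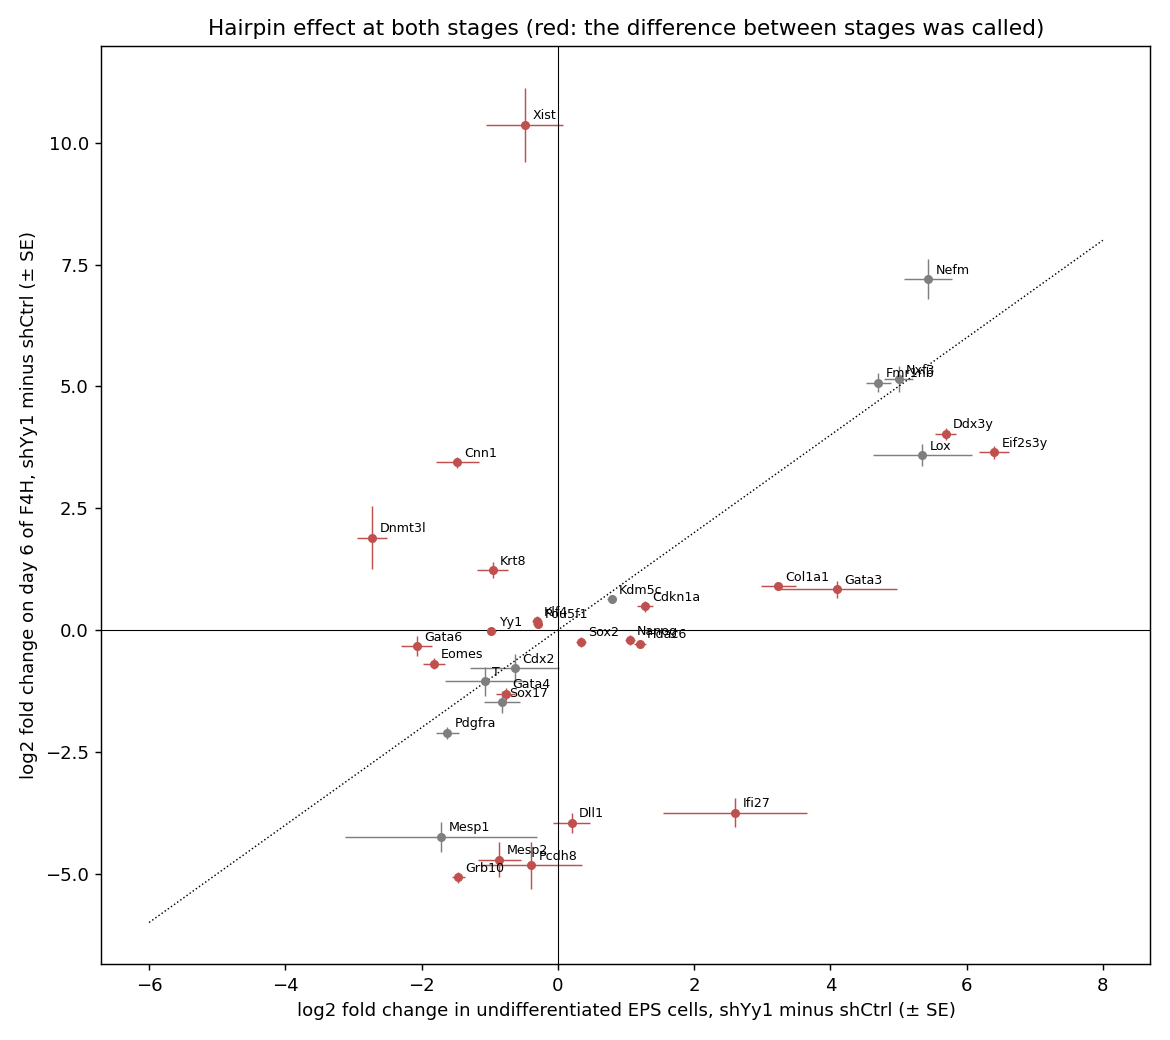
Log2 fold change (shYy1 minus shCtrl, ± SE) on day 6 of F4H against that in undifferentiated EPS cells for 33 genes, both from the fit of 16 libraries. Red marks genes whose difference between stages was called, and the dotted line marks equal effects. Nxf3 and Fmr1nb lie near the line, and Cnn1, Krt8 and Dnmt3l lie above 0 on day 6 and below it before. Genes with 0 counts in an undifferentiated group are not drawn.

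A separate set of libraries compared ES cells with oeYy1 against oeCtrl at the same time point. Yy1 rose there from 127 ± 4.36 to 330.5 ± 4.83 CPM (SD, n = 2, log2 1.38, adjusted p = 9.22e-33). Y-linked levels differed in this pair too: the 334 symbols summed to 108 and 110 CPM in oeCtrl and to 73.6 and 67.7 CPM in oeYy1. Xist was under 1 CPM in all of them. What part of the changes belongs to the construct and what part to the lines was not tested. No library is shared between the 2 comparisons, although the day 6 libraries were scaled and fitted together. With the construct 41.9% of genes were called, 20.3% higher and 21.6% lower, and 2.86% and 3.19% by at least 2-fold. Of the 1143 genes at least 2-fold higher under shYy1, 671 (58.7%) were called lower with oeYy1 and 25 (2.19%) higher. Of the 1264 at least 2-fold lower under shYy1, 531 (42.0%) were called higher with oeYy1 and 32 (2.53%) lower. The 2 effects had a Pearson correlation of -0.48 across 15927 genes, which are not independent of each other.

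Some gene groups that moved under shYy1 went the opposite way with oeYy1. Mesendoderm genes, 14 of 17 lower under shYy1, were higher with oeYy1 in 12 cases and lower in none. Smooth muscle genes, all higher under shYy1, were lower with oeYy1 in 14 of 16 cases and higher in 1. Acta2 stood at 843 ± 31.6 CPM in oeCtrl and 232 ± 12.1 CPM in oeYy1 (SD, n = 2, log2 -1.86, adjusted p = 5.13e-40). Egr1 went the other way, from 65.8 to 325 CPM (log2 2.31), and so did Eomes, from 71.0 to 186 CPM (log2 1.39). Lox fell with Acta2, from 17.7 to 1.09 CPM (log2 -4.01). Interferon genes were higher with oeYy1 in 9 of 18 cases and lower in none. Endothelial and blood genes, 8 of 12 lower under shYy1, were higher with oeYy1 in 3 cases and lower in 2. Grb10, by contrast, moved by log2 0.20 only, and cholesterol genes, mostly higher under shYy1, were higher with oeYy1 in 7 cases and lower in 2.

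**Figure D5:**
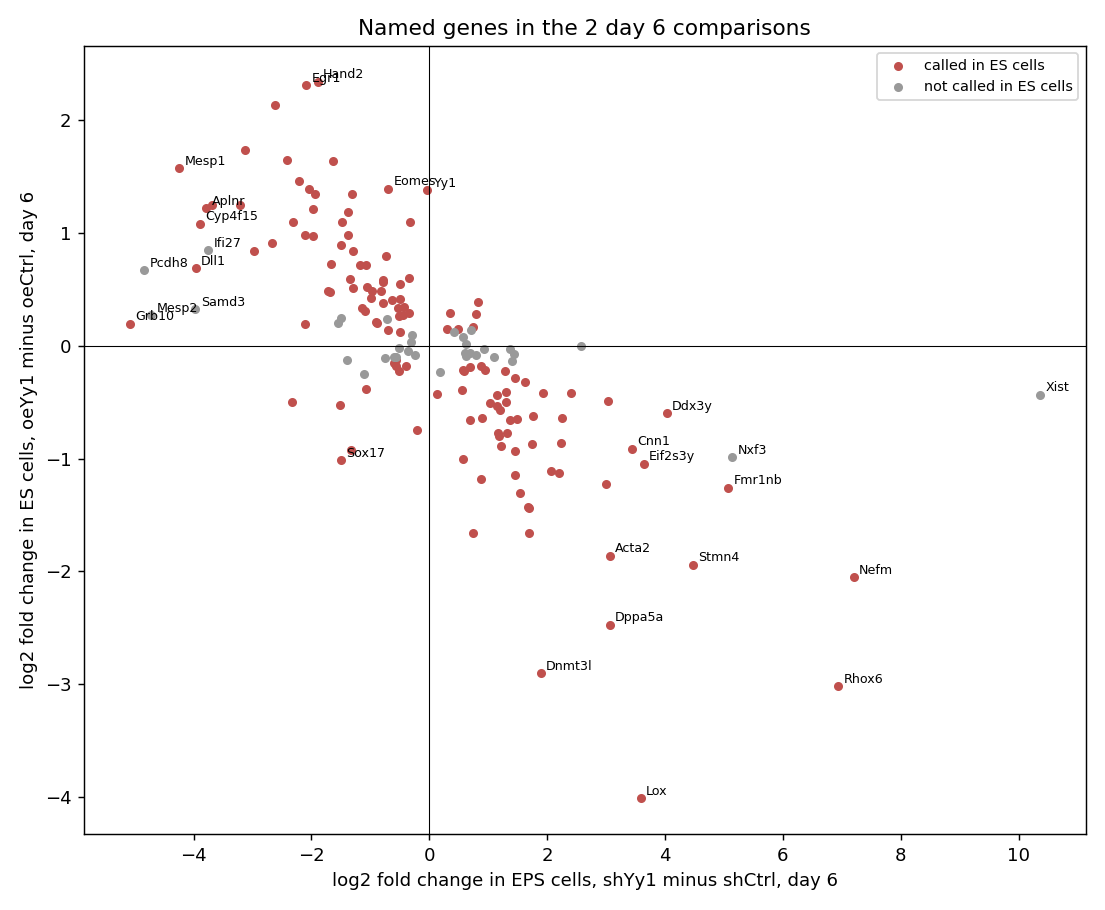
Log2 fold change of oeYy1 against oeCtrl in ES cells against that of shYy1 against shCtrl in EPS cells, day 6, for 167 named genes with counts in all 4 groups. Red marks genes called in ES cells. Most points lie in the upper left and lower right, and Yy1 stands at 0 on the hairpin axis.

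For several of these genes, picked after their values were seen, the level under shYy1 was close to that of the ES control cells on day 6. Acta2 stood at 872 and 868 CPM under shYy1 and 843 CPM in oeCtrl, against 105 and 103 CPM in EPS shCtrl, and Lrp2 at 627 and 591 CPM and 665 CPM, against 119 and 112 CPM. Aplnr was 15.1 and 15.5 CPM and 16.8 CPM, against 213 and 208 CPM, and Isg15 8.88 and 9.37 CPM and 7.02 CPM, against 56.9 and 59.1 CPM. Xist and Grb10 did not follow this order, with 0.613 and 131 CPM in oeCtrl. A comparison of EPS shCtrl with ES oeCtrl would share the shCtrl libraries, so these levels are given side by side without a test.

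YY1's own core letters, searched as AANATGGCG on both strands, stood in 5.5% of the 11490 tested genes with a promoter window and in 2.38% of all 32851 windows. They stood in 18 of 800 genes at least 2-fold higher (2.25%) and in 19 of 890 at least 2-fold lower (2.13%), a smaller share than among all tested genes on both sides. These shares describe letters in these windows and say nothing on binding.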

How the data were processed

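RNA-seq counts per gene were used for 16 libraries of 8 groups, 2 each, mapped by sample titles. The values are raw counts as deposited by the authors, whole numbers over 47517 symbols with HTSeq summary lines at the end of each table. Per the submitters' processing notes the series used CASAVA, Bowtie2 2.3.2, mm10 and GRCm38.p6, with no role given for RNA-seq, and the counter and strand setting are not given in the sources used here. Libraries came from TRIzol RNA with a VAHTS mRNA kit, per the labels' protocols. Summary lines were dropped: 6.71 to 7.35% of reads lay outside genes, 3.90 to 4.09% were ambiguous and 6.03 to 6.66% not unique in the 4 main libraries.

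Day 6 effects came from edgeR 4.0.16 in R 4.3.3 (TMM, filterByExpr, robust quasi-likelihood F-test) on the 8 day 6 libraries in 4 groups. The stage difference came from all 16 libraries. Calls required a p below 0.05 after Benjamini-Hochberg adjustment over all genes tested. SE is the log2 change divided by the square root of F. Counting floors cover counting error only. Named genes were Yy1, the 10 largest rises and falls among called genes of at least 5 CPM with non-overlapping groups and a gene name, up to 4 called genes of smallest p per list and a fixed set. The members, lists and named genes were chosen with earlier results of these data known. Of 701 list entries 700 were found in the tables.

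On simulated data with 200 changed genes, 74.6, 92.5 and 100.0% of 1.5-, 2- and 4-fold changes were recovered among 15700 genes on day 6, and 38.8, 70.1 and 81.8% among 16909 genes for the stage difference. The changed genes were drawn above a minimum level, and the spread was that fitted to these libraries. Far fewer genes were changed than were called in the data, and variation between lines was not simulated. These shares therefore do not give the detection rate in the data. DESeq2 1.42.0, other scaling, filters, libraries and a replicate block were tried as alternatives. Samples of other assays were not analysed here. Results for some genes are not reported here.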

Additional observations from a re-analysis of the deposited data

Results flagged for a closer look

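The effect of the hairpin label differed between day 6 of F4H and undifferentiated cells for 23 of 39 genes tested (edgeR's quasi-likelihood test of the difference, adjusted over all genes of the 16-library fit, 41.5% of which were called). Values are log2 effects on day 6 minus those before. Yy1 itself differed by 0.95: it was called lower under shYy1 only in undifferentiated cells. The sex-linked transcripts Xist (10.85), Ddx3y (-1.66) and Eif2s3y (-2.76) and the X-linked deacetylase gene Hdac6 (-1.49) differed too.

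More positive effects on day 6 were found for the calponin gene Cnn1 (4.92), Dnmt3l (4.62), the keratin gene Krt8 (2.19), Gata6 (1.75), Eomes (1.13), Klf4 (0.49) and Pou5f1 (0.43). More negative ones were found for the mesoderm and Notch genes Mesp2 (-3.86), Pcdh8 (-4.44) and Dll1 (-4.16), for Grb10 (-3.61) and for the interferon-inducible Ifi27 (-6.35). The same held for Gata3 (-3.26), Gata4 (-0.54), Nanog (-1.27), Sox2 (-0.57), the collagen gene Col1a1 (-2.33) and the p53 target Cdkn1a (-0.80). Ifi27, Gata3 and Pcdh8 were under 1 CPM in both undifferentiated groups, so their differences rest on few counts.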

How the results depend on the processing

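All 7 counts of called genes stayed within 1.5 times their value in the alternatives run (66 values in all), with day 6 medians shifting by under 0.02 on the log2 scale. Leaving out 1 library gave 4316 to 4405 genes higher, 4067 to 4248 lower, 1052 to 1096 at least 2-fold higher and 1152 to 1219 at least 2-fold lower on day 6, and 5934 to 8196 stage differences. DESeq2 gave 4091, 3594, 989 and 972 on day 6. With 2 libraries a group, a left-out library leaves 1 that is assumed to vary like the others. Yy1 was not called on day 6 under any of 11 alternatives. Of 1845 values of 169 named genes 21 lost their call, among them Lin28a in the 16-library fit (adjusted p = 0.128), which was added after the data were seen, and Hbb-bh1 in DESeq2 (adjusted p = 0.231).

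No pairing by replicate number was seen: differences between replicate 1 and 2 correlated at -0.00886 between the day 6 groups. With replicates so near counting noise, this correlation cannot decide whether samples were paired. With the replicate number as a block 4887 genes were higher and 4805 lower, 1139 and 1265 by at least 2-fold, with 7102 stage differences, 7362 genes called in undifferentiated cells and 6574 with oeYy1.

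Undifferentiated shCtrl replicates lay far apart. The stage difference of T (0.02 with all libraries) was 0.65 without undifferentiated shCtrl replicate 1 and turned to -1.34 (adjusted p = 0.00501) without replicate 2, which also gave Cdx2 a called difference of -2.29. The stage call of Gata4 was lost in 4 of the leave-outs (adjusted p = 0.0516 to 0.0958) and that of Gata3 in 2 (adjusted p = 0.0754 and 0.0925); the causes were not tested. Levels near 0.2 CPM rest on very few counts.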

Other observations

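A set of X-linked genes was near the counting floor in the day 6 shCtrl libraries and expressed in those labelled shYy1. Of 37 called genes with a mean under 0.2 CPM in shCtrl and at least 1 CPM under shYy1, 13 lay on the X chromosome, which held 3.59% of the genes tested. The 2 levels were set after the data were seen. Such genes passed the count filter only through groups where they were higher, and the share over all tested genes includes genes expressed in shCtrl. The 2 shares are therefore not of like sets. Copies of the Xlr and Rhox families were counted as separate genes. Gm364 stood at 0 and 0.0945 CPM in shCtrl and 68.9 and 68.6 CPM under shYy1. Xlr3b, of a family of lymphocyte-regulated X-linked genes, had 0 counts in shCtrl and 9.67 and 9.95 CPM under shYy1, at least 68.1-fold higher against 3 counts per library. Its relatives Xlr3a (6.27 and 6.93 CPM under shYy1) and Xlr4a (5.59 and 5.20 CPM) had 1 count each over both shCtrl libraries, and Xlr3c had none. These copies are near-identical and can share or lose reads, so their separate levels are uncertain.

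Their levels in undifferentiated cells were as follows, with no test given here. Gm364 averaged 1.95 and 157 CPM in shCtrl and shYy1 there, Xlr3b 0.370 and 128 CPM, Xlr3a 1.05 and 202 CPM, Xlr4a 0.154 and 27.3 CPM and Rhox9 1.30 and 8.07 CPM (means of 2 on the 16-library scale). Xist stood apart from them, with 15.1 and 10.8 CPM before and 476 and 489.7 CPM under shYy1 on day 6. Among its neighbours in the inactivation centre Ftx (6.68 and 6.19 CPM in shCtrl and 6.32 and 8.02 CPM under shYy1) and Jpx (0.829 and 0.898 CPM in shCtrl and 0.836 and 1.86 CPM under shYy1) were not called, while Rlim, an activator of Xist, rose from 168 and 163 CPM to 269.8 and 256 CPM (log2 0.67 ± 0.047, adjusted p = 9.50e-19). Tsix, which overlaps Xist on the other strand, followed it weakly (0.195 and 0.331 CPM in shCtrl and 1.67 and 0.835 CPM under shYy1), and reads of the pair cannot be told apart without a known strand setting.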
